A study of Rattus norvegicus with 10 samples.

Results

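Acnat1, Acnat2 and Baat are 3 acyl-CoA N-acyltransferase genes among the 32883 genes of the deposited tables, found by their symbols. They were chosen because of their measured EHBR and SD levels, so those levels and the differences between strains are given as a description, with no test. The samples are livers of male rats, all 5 weeks old, 5 from EHBR and 5 from SD, and each strain's samples carry the numbers 1 to 5. EHBR, the Eisai hyperbilirubinemic rat, is a mutant line derived from Sprague-Dawley (SD) stock that lacks the canalicular pump Mrp2, encoded by Abcc2, and is used to study jaundice with conjugated bilirubin. The loss of Mrp2 and any other difference between EHBR and SD cannot be told apart here, and no treatment is given in the labels.

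Baat encodes bile acid-CoA:amino acid N-acyltransferase, which joins taurine or glycine to bile acids in liver peroxisomes and so makes the conjugated bile salts that are secreted into bile. Acnat1 and Acnat2 encode related proteins. In the mouse, Acnat1 is known as a peroxisomal enzyme that joins taurine to long-chain fatty acids. All 3 belong to a family of acyl-CoA hydrolases and transferases that also holds the type I acyl-CoA thioesterases.

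In the build rn6, as the deposited tables give it, the 3 genes lie next to each other on the minus strand of chromosome 5. Acnat2 (ENSRNOG00000051912) runs from 64669999 to 64702892, Acnat1 (ENSRNOG00000056688) from 64713443 to 64718131 and Baat (ENSRNOG00000007395) from 64768401 to 64777368. The gap is 10.6 kb between Acnat2 and Acnat1 and 50.3 kb between Acnat1 and Baat. RefSeq on the build GRCr8 lists the pseudogene Acnat2-ps1 between Acnat2 and Acnat1. The start regions of the 3 genes in RefSeq, each holding 250 bases before and 50 bases after the annotated start on the minus strand of GRCr8, are shown because Acnat1 and Acnat2 are close copies there and Baat is not. The first is at chr5:68597118-68597417, the second at chr5:68552970-68553269 and the third at chr5:68656088-68656387. Capitals mark bases that differ between Acnat1 and Acnat2, with those absent from the other copy included, and in Baat the letters of 1 motif match.
Acnat1: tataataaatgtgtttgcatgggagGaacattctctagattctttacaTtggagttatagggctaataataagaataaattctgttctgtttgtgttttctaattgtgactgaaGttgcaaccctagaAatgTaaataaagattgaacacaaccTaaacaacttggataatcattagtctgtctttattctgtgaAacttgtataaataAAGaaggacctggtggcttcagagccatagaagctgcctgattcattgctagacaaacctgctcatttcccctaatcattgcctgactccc
Acnat2: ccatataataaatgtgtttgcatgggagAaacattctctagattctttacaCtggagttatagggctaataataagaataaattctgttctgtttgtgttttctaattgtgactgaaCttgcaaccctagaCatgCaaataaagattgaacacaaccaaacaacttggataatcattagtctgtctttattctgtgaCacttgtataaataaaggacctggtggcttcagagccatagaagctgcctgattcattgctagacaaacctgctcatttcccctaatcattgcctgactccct
Baat: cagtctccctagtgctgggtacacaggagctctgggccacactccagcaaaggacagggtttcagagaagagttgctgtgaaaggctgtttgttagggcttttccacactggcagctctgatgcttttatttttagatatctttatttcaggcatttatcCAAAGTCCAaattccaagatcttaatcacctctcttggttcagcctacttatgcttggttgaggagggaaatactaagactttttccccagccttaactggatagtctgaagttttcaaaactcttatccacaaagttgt

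Of 296 paired bases in the Acnat1 and Acnat2 windows, 290 were identical (98.0%), with 6 mismatches and 4 gap bases. Of the 286 words of 15 bases in the Acnat1 window, 179 also occurred in that of Acnat2, and the next best of all 33469 RefSeq promoter windows shared 2. Baat shared 0 such words with either. The sequence TATAAA begins at position -49 in Acnat1 and -47 in Acnat2, counted from the annotated start, was not found in Baat, and occurs on at least 1 strand in 14.2% of all windows. The sequence CAAAGTCCA, a motif known for the liver factor HNF4A, begins at position -90 in Baat, was not found in the Acnat windows and occurs in 0.391% of all windows. The STAT-type sequence TTCNNNGAA was matched once in Acnat1 at position -63 and once in Baat at position -190, and occurs in 8.87% of windows. The half-site AGGTCA repeated with 1 base (N) between, directly as known for PPARA or inverted as known for the bile acid receptor FXR, was matched in none of the 3, and these forms occur in 0.0538% and 0.0269% of windows. Both strands were searched, no 2 matches overlap, and the letters are those of the reference genome, not of these rats. The transcripts of Acnat1 and Acnat2, from which the reads come, were not compared, so whether reads were assigned to the wrong copy was not tested, and the split between them is to be read with that limit.

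The samples held 13.8 to 17.6 M reads assigned to genes in EHBR and 15.6 to 19.6 M in SD, as recovered from the deposited values. TPM and FPKM are levels per transcript length, scaled to a total within each sample. A strain difference here is the mean log2(TPM + 1) of EHBR minus that of SD. Of all genes, 11083 reached 1 TPM in 5 or more samples and were tested, and limma with Benjamini-Hochberg adjustment called 604 of them at an adjusted p under 0.05, or 5.45%. Of those tested, 423 (3.82%) were higher in EHBR and 181 (1.63%) lower. That split followed the scaling, with 307 higher and 215 lower in FPKM, 219 and 262 in upper-quartile FPKM, 314 and 290 after quantile normalization, and 193 and 266 with the sample medians set equal. The median gene differed by 0.15, and by -0.02 after that centring. Samples 4 and 5 of both strains stood apart from samples 1 to 3: across genes, deviations from the strain means of an EHBR and an SD sample correlated at 0.0542 to 0.396 within these sets and at -0.367 to -0.0924 between them, a description of the samples. The division was found in the data, and the values of each set are given where they bear on a member.

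Acnat1 was nearly absent from the EHBR livers. Its levels were 0, 0.166, 0.0728, 0 and 0.178 TPM in EHBR samples 1 to 5, against 136, 252, 257, 165 and 65.3 TPM in SD samples 1 to 5. Every EHBR sample was below every SD sample, and none of the EHBR samples reached 1 TPM. Behind the FPKM values stood 0, 0, 0, 1 and 2 reads in the EHBR samples, against 2148, 3603, 3535, 3078 and 1311 reads in the SD samples. Relative to all reads assigned, 3 reads in all EHBR samples against 13675 in all SD samples correspond to a level 4111 times as high in SD, with an exact 95% interval from 1406 to 19938 that covers counting error only. EHBR sample 5 held 2 of the 3 reads, and without it the ratio was 10209, with an interval from 1832 to 403251. By mean TPM, the SD level was 2101 times the EHBR level. The 3 EHBR samples with 0 reads allow up to 0.153, 0.152 and 0.136 FPKM, the level that 3 reads would give. On the log2(TPM + 1) scale the difference was -7.19, a value that depends on the added 1 and is no bound on the fold. It was the second lowest of the 11083 genes tested. Acnat1 passed the filter on low values only through the 5 SD samples.

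Acnat2, the copy downstream of Acnat1, was low but measurable in EHBR. It had 2.62, 2.70, 3.71, 2.40 and 4.48 TPM in EHBR samples 1 to 5, against 155, 62.0, 60.3, 37.0 and 19.5 TPM in SD samples 1 to 5. The groups did not overlap, and the highest EHBR sample lay below the lowest SD sample. The mean was 3.18 ± 0.883 TPM in EHBR and 66.8 ± 52.5 TPM in SD (± s.d., n = 5 per strain), so the SD mean was 21.0 times the EHBR mean in TPM and 23.7 times in FPKM. The reads were 52, 52, 84, 56 and 80 in EHBR and 3708, 1535, 1367, 1242 and 607 in SD. Acnat2 differed by -3.72 on the log2(TPM + 1) scale, the 13th lowest of the genes tested. Samples 1 to 3 alone gave a difference of -4.41, and samples 4 and 5 alone -2.69. SD samples 4 and 5 had the lowest SD values.

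Baat, by contrast, was among the abundant liver transcripts in both strains, and its strains overlapped in TPM. It had 1012, 1000.1, 1001.5, 771 and 877 TPM in EHBR samples 1 to 5, against 1183, 1154, 1157, 1214 and 802 TPM in SD samples 1 to 5. In samples 1 to 3 the EHBR values lay below the SD values, while among samples 4 and 5 SD sample 5 lay between the EHBR values. The mean was 932 ± 106 TPM in EHBR and 1102 ± 169 TPM in SD (± s.d., n = 5 per strain), a difference of -0.23 on the log2(TPM + 1) scale. In FPKM the mean was 588 ± 55.8 in EHBR and 741 ± 101 in SD (± s.d., n = 5 per strain), and the strains overlapped there too. In upper-quartile FPKM they did not, and every EHBR sample lay below every SD sample. The highest EHBR sample there, sample 3, had 18694 reads at an upper-quartile count of 415. The lowest SD sample, sample 5, had 19383 reads at a count of 413. Whether the Baat strains overlap thus depends on the scaling. By mean TPM Baat ranked at place 119 of all genes in EHBR and 106 in SD, where Acnat1 ranked at place 15219 in EHBR and 628 in SD, and Acnat2 at 8550 in EHBR and 1348 in SD. In bulk liver, fewer cells of a type and less RNA per cell cannot be told apart for any of the 3.

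**Figure D1:**
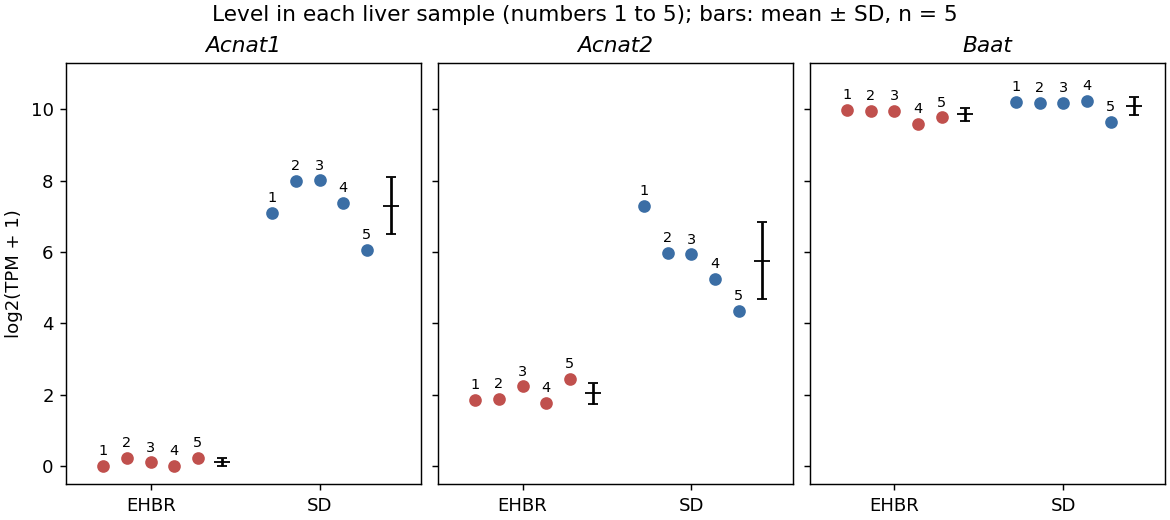
Level of Acnat1, Acnat2 and Baat as log2(TPM + 1) in each of 5 EHBR and 5 SD livers; points carry the sample number, and bars beside them show mean ± SD. Acnat1 lies at or near 0 in every EHBR liver, Acnat2 lies lower in every EHBR liver than in any SD liver, and the Baat values of the strains overlap.

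In TPM, no overlap between strains was seen for 2 of the 3 genes, where 8.47% of the 11083 genes tested showed none. Those with EHBR lower were 2.02% of the genes tested. Differences of -3 or lower on this log2 scale were found in 17 of the 11083 genes, or 0.153%. Because the genes were picked on this contrast, nothing is read from those shares.

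The order of the 3 levels was Baat, Acnat2, Acnat1 in all 5 EHBR livers, with no overlap between genes. In the SD livers Baat was again above both others in every sample, but the ranges of Acnat1, 65.3 to 257 TPM, and Acnat2, 19.5 to 155 TPM, overlapped. Acnat1 exceeded Acnat2 in 4 of the 5 SD samples, with ratios of 4.07, 4.26, 4.45 and 3.34 in samples 2 to 5. In SD sample 1 the ratio was 0.877, with Acnat2 the higher. In EHBR the ratio was between 0 and 0.0615. The same SD sample stood apart in FPKM, at 0.943 against 3.52 to 4.21 in the other 4.

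The sum of the copies varied less among SD samples 1 to 3 than either copy did. Acnat1 and Acnat2 together made 291, 314 and 317 TPM in those samples, 202 TPM in SD sample 4 and 84.9 TPM in SD sample 5. In EHBR the sum was between 2.40 and 4.66 TPM. The copies therefore held 0.258% to 0.529% of the summed TPM of the 3 genes in EHBR and 9.57% to 21.5% in SD. Baat was between 188 and 387 times the sum of the copies in EHBR, and between 3.65 and 9.45 times in SD.

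**Figure D2:**
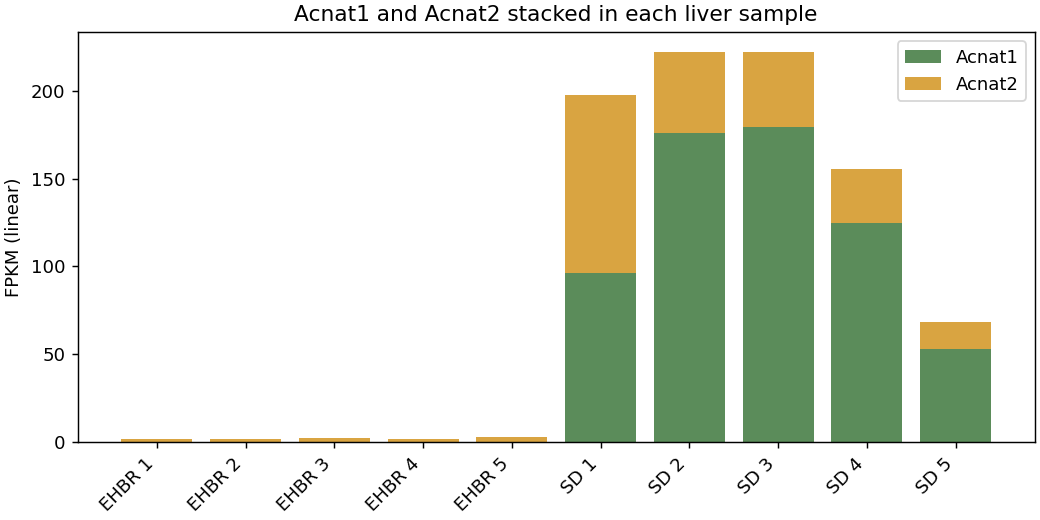
FPKM of Acnat1 and Acnat2, stacked on a linear axis, in each EHBR and SD liver. The 5 EHBR stacks stay between 1.59 and 2.94 FPKM, the SD stacks lie between 68.3 and 222 FPKM, and SD sample 1 has Acnat2 as the larger part.

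Spread within SD was widest for Acnat2, with a coefficient of variation of 78.5%, against 46.3% for Acnat1 and 15.4% for Baat. SD sample 5 was lowest of the SD samples for all 3 genes. In EHBR the coefficient of variation was 27.8% for Acnat2 and 11.4% for Baat. Summed markers of hepatocytes, the cells that make bile acids, were 164051 to 189228 TPM in EHBR and 143287 to 176112 TPM in SD, with the lowest SD sum in sample 5. Of the 12 hepatocyte markers, 1 was called, Ass1, which was higher in EHBR. Of the endothelial markers, 3 of 8 matched, Stab1, Stab2 and Kdr, were higher in EHBR, with sums of 95.9 to 126 TPM in EHBR and 65.2 to 89.7 TPM in SD. Cholangiocyte marker sums were 12.3 to 13.9 TPM in EHBR and 15.3 to 17.5 TPM in SD, and of the 6 genes 2 were tested, neither of which was called by limma. Of the 6 matched erythroid markers, 5 were tested and Slc4a1 was called as higher, and sums were 1325 to 3309 TPM in EHBR and 981 to 2047 TPM in SD. Macrophage sums were 500 to 927 TPM in EHBR and 499 to 621 TPM in SD, and stellate and fibroblast sums 136 to 174 TPM in EHBR and 84.6 to 175 TPM in SD, with none called in either list. Kidney, another organ known to express Acnat1 in the mouse, was checked with 7 tubule genes, with sums of 173 to 191 TPM in EHBR and 168 to 299 TPM in SD, of which Kap, Slc34a1 and Umod were listed at 0 in all 10 samples. The part of these markers in the member differences was not tested.

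The genes tested around the 3 did not show a drop of that size. Of the 22 other genes within 1 Mb on chromosome 5 that are reported here, 6 were tested and 10 were listed at 0 in all samples. By limma, 0 of the 6 passed at an adjusted p under 0.05, where 5.45% of all genes tested did. An unadjusted p under 0.05 was found for 1 of the 6. With so few genes nothing is read from these counts. Their differences ran between -0.19 and 0.54 on the log2(TPM + 1) scale. Mrpl50, a mitochondrial ribosomal protein gene next to Baat, had 24.7 TPM in EHBR and 27.8 TPM in SD. The most abundant of the 6, Erp44, which encodes a chaperone of the early secretory pathway, had 69.2 ± 7.83 TPM in EHBR and 79.0 ± 8.92 TPM in SD (± s.d., n = 5 per strain), a difference of -0.19 (SE 0.11, adjusted p = 0.338, limma). On the side of Acnat2, the nearest gene tested was Tex10, with 2.15 TPM in EHBR and 2.11 TPM in SD.

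**Figure D3:**
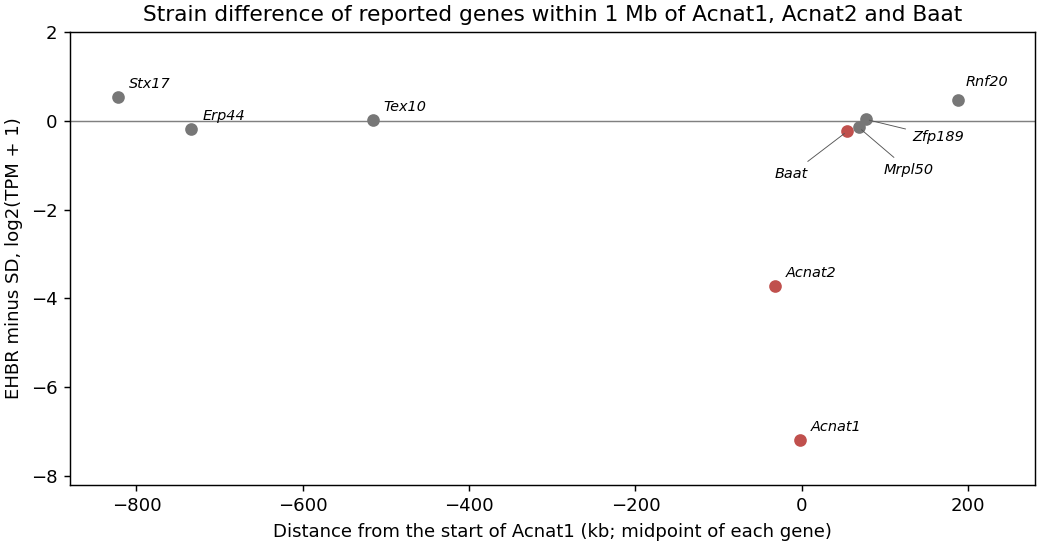
Strain difference, EHBR minus SD on the log2(TPM + 1) scale, of the reported genes tested near the cluster, plotted by the distance of each gene's midpoint from the start of Acnat1 in kb; red points are Acnat1, Acnat2 and Baat. Acnat1 and Acnat2 lie at -7.19 and -3.72, and the 6 neighbours lie between -0.19 and 0.54.

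Genes of related pathways passed the test in both directions, at a share not far from that of all genes. Of 96 genes in 7 lists, none of them a member, 88 were matched and 77 tested. Of these, 3 were higher and 3 lower in EHBR, or 7.79% against 5.45% of all genes tested, and the median difference was 0.15 against 0.15 over all genes. An unadjusted p under 0.05 by limma was found for 20 of the 77. The share of all genes tested under that unadjusted p is not given here, so nothing is read from such counts in any list. The list of bile acid conjugation, which makes the bile acyl-CoA that Baat uses, had 0 of 10 tested genes called by limma and 1 with an unadjusted p under 0.05. Slc27a5, the bile acid CoA ligase that acts just before Baat, had 364 ± 24.1 TPM in EHBR and 360 ± 72.5 TPM in SD (± s.d., n = 5 per strain), a difference of 0.04 (SE 0.14, adjusted p = 0.885, limma). Scp2, a peroxisomal thiolase and sterol carrier and the most abundant of that list, had 444 ± 48.1 TPM in EHBR and 393 ± 32.9 TPM in SD (± s.d., n = 5 per strain), with an adjusted p = 0.334 by limma. Genes of these lists named without a call were picked by abundance or, like Slc27a5, after their values were seen.

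Bile acid synthesis and its feedback genes had 0 of 10 called by limma, with 5 at an unadjusted p under 0.05, a count given without the share over all genes. The median difference was 0.36, against 0.15 over all genes. Akr1d1 and Cyp39a1 lay just over the threshold, with differences of 0.52 and 0.38 (adjusted p = 0.0688 and 0.0693, limma). The strains did not overlap for Cyp39a1. The most abundant, the hydroxysteroid dehydrogenase gene Akr1c14, had 994 ± 148 TPM in EHBR and 736 ± 244 TPM in SD (± s.d., n = 5 per strain), with a log2 difference of 0.48 and an adjusted p = 0.202 by limma. Without SD sample 2, Akr1c14 passed (adjusted p = 0.0485, limma). Among 13 genes that supply taurine and glycine, the amino acids joined to acyl groups, 1 passed. Sardh, the mitochondrial sarcosine dehydrogenase that yields glycine, rose to 88.5 ± 3.46 TPM in EHBR, against 63.0 ± 5.21 TPM in SD (± s.d., n = 5 per strain), a difference of 0.49 (SE 0.08, adjusted p = 0.00549, limma). Sardh lost its call after centring on the sample median (adjusted p = 0.279, limma). Cdo1 and Csad, which make taurine from cysteine, did not pass, with log2 differences of 0.04 and 0.22.

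The mitochondrial route, in which acyl groups are joined to glycine by Glyat and relatives after activation by Acsm enzymes, had 1 higher and 1 lower gene among 6 tested. Acsm3, a medium-chain acyl-CoA synthetase, fell to 8.58 ± 3.37 TPM in EHBR, against 17.8 ± 1.77 TPM in SD (± s.d., n = 5 per strain), a difference of -1.03 (SE 0.20, adjusted p = 0.0111, limma). Acsm2, another synthetase of that family, rose to 144 ± 10.2 TPM in EHBR, against 106 ± 14.7 TPM in SD (± s.d., n = 5 per strain), a difference of 0.44 (adjusted p = 0.0387, limma). The Acsm2 call was lost when any single sample other than EHBR sample 4 or SD sample 2 was left out, with differences between 0.36 and 0.47, and after median centring (adjusted p = 0.165, limma). Glyat, Glyatl1 and Glyatl2, the transferases themselves, did not pass.

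Acyl-CoA thioesterases, of which only the type I enzymes were named above as family of Baat, had 0 of 9 tested genes called by limma. Of the 9, 1 had an unadjusted p under 0.05. Acot12, the most abundant, had 41.4 ± 10.1 TPM in EHBR and 38.5 ± 10.8 TPM in SD (± s.d., n = 5 per strain). In peroxisomal fatty acid oxidation, 1 gene was higher and 1 lower of 14 tested. Nudt19, a peroxisomal CoA diphosphatase, fell to 17.0 ± 1.55 TPM in EHBR, against 26.9 ± 4.26 TPM in SD (± s.d., n = 5 per strain), a difference of -0.62 (SE 0.12, adjusted p = 0.0126, limma). Aldh3a2, a fatty aldehyde dehydrogenase, rose to 246 ± 22.6 TPM in EHBR, against 185 ± 15.6 TPM in SD (± s.d., n = 5 per strain), a difference of 0.41 (adjusted p = 0.0269, limma). The Aldh3a2 call was lost in FPKM (adjusted p = 0.0982, limma) and without any 1 of EHBR samples 1 to 4 or SD samples 1 and 3, with differences between 0.36 and 0.41.

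Of 15 liver transcription factors, 1 passed, the orphan nuclear receptor gene Nr2f6, at 63.0 ± 6.95 TPM in EHBR and 83.6 ± 8.80 TPM in SD (± s.d., n = 5 per strain), a difference of -0.40 (adjusted p = 0.0452, limma). Nr2f6 lost that call when any sample other than EHBR sample 1 was left out, with differences between -0.44 and -0.34. In samples 4 and 5 alone, 2 EHBR against 2 SD samples, none of the 6 called genes of these lists passed, with adjusted p between 0.0767 and 0.228 by limma. The log2 differences there were 0.45 for Sardh, 0.56 for Acsm2, -0.60 for Nudt19 and -0.41 for Nr2f6, while Acsm3 had -0.68 and Aldh3a2 0.26, and all 6 kept their direction. Hnf4a, the factor known to act on Baat, had 160 ± 32.6 TPM in EHBR and 145 ± 55.4 TPM in SD (± s.d., n = 5 per strain) and did not pass (adjusted p = 0.641, limma). Nr1h4, the bile acid receptor FXR, did not pass either, with a difference of 0.47 (adjusted p = 0.225, limma).

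**Figure D4:**
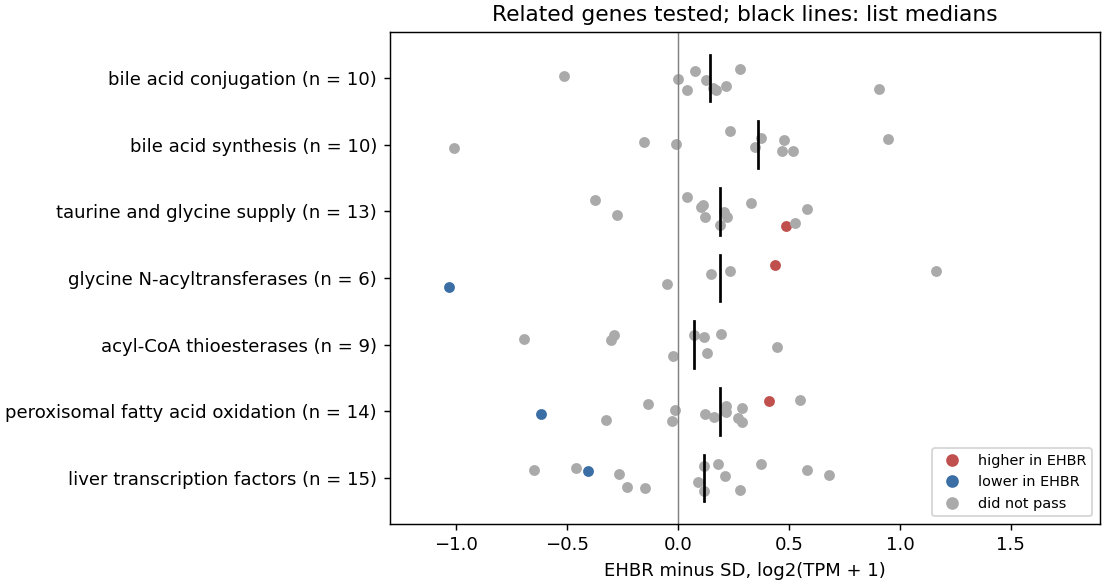
Strain difference, EHBR minus SD on the log2(TPM + 1) scale, of each tested gene in the 7 related lists; red and blue points passed limma as higher or lower in EHBR, grey points did not pass, and black lines are list medians. The differences of the 77 genes lie between -1.03 and 1.16.

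The genes whose course over the 10 samples was most like that of each member were found by root mean square distance. It was taken between log2(TPM + 1) values, each gene centred on its mean. Compared were the 6574 other genes whose mean reached 5 TPM and whose symbol was no placeholder, such as a LOC or RGD name. The strain difference enters this distance, and the genes it picks are described without a test. Nearest to Acnat1 were Mup4 at a distance of 1.06, RT1-N2 at 1.13 and Mup5 at 1.22, while Acnat2 lay at 1.85. RT1-N2, a class I histocompatibility gene, was listed at 0 in all 5 EHBR samples and had 27.1 to 47.1 TPM in SD. The urinary protein gene Mup4 had 0.105 to 3.73 TPM in EHBR and 37.2 to 217 TPM in SD. Mup and RT1 genes belong to multigene families, and whether their reads were assigned to the right member was not tested.

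Nearest to Acnat2 was Abcc2, which encodes Mrp2, at a distance of 0.65, with 10.1 to 17.6 TPM in EHBR and 60.0 to 271 TPM in SD. Nox4, an NADPH oxidase gene, followed at 0.70 and Mst1, which encodes a growth factor related to HGF, at 0.72. These 3 genes, and also Mup4 and Mup5, had their lowest SD values in samples 4 and 5, as Acnat2 did. For Baat the nearest were Atoh8 at 0.09, Jtb at 0.09 and Creb3l4 at 0.09, genes that also varied little, with the lowest of the SD values in sample 5.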

How the data were processed

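Total RNA from liver was extracted with TRIzol and made into poly(A)-selected directional libraries (labels' protocols). Tools listed in the submitters' processing notes, without order, are HISAT2 2.1.0, featureCounts 1.6.3, Trimmomatic 0.38 and FastQC 0.11.7, with rn6 as the build. The sources used here do not say whether strand was used in counting. The authors deposited TPM, FPKM and an upper-quartile FPKM signal, 1 column per sample. Sample titles gave the groups; whether each sample is 1 animal from its own litter is not stated, so the tests rest on the spread among samples, which may be partly technical.

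Whole reads came from the upper-quartile FPKM values. Their steps gave the upper-quartile count of each sample, and the smallest gene length under which all 10 values came out whole within 0.002 reads gave the reads. Recovered lengths were 1260 bases for Acnat1, 2052 for Acnat2 and 1703 for Baat.

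limma 3.58.1 in R 4.3.3 with the trend option tested log2(TPM + 1) of all kept genes, two-sided, with strain as factor. Both steps were tested on simulated data. 1 gene kept in the fit is not reported here and is left out of the counts over lists and neighbours. Alternatives tried were the other 2 tables, a pseudocount of 0.1 or 5, no filter or a mean of at least 5 TPM, median centring, quantile normalization, the replicate number, the division into samples 1 to 3 and 4 and 5, and leaving out each sample. The members, the lists and the division were chosen with earlier results of these data known. Named genes were the members, up to 3 called genes with the smallest adjusted p in each list and among the neighbours or else the most abundant, and the 3 nearest patterns per member. Slc27a5, Tex10, Mrpl50, Akr1d1, Cyp39a1, Cdo1, Csad, Glyat, Glyatl1, Glyatl2, Hnf4a, Nr1h4 and the called markers were named outside that rule, after their values were seen. Python 3.11.15 with Biopython 1.88 and matplotlib 3.10.9 was used for sequences and figures.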

Additional observations from a re-analysis of the deposited data

Results flagged for a closer look

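In the SD livers, Baat in sample 5 stood apart from the other 4 in TPM. It had 802 TPM there, against 1154 to 1214 TPM in samples 1 to 4, and the gap to the nearest sample was 0.856 of the whole range, above Dixon's critical value of 0.71 for 5 samples. In FPKM, Baat had 581 in SD sample 5 against 735 to 860 in samples 1 to 4, and did not exceed the critical value. Acnat1 and Acnat2 were also lowest among SD samples in sample 5. The ratio of Acnat1 to Acnat2 in FPKM was 0.943 in SD sample 1, against 3.52 to 4.21 in the others, a gap of 0.788 of the range. The same ratio in TPM did not exceed the critical value. Erp44 in EHBR had 82.8 TPM in 1 sample, against 63.3 to 68.2 TPM in the other 4, a gap of 0.751 of the range. These 3 were found among 57 groups of values examined, where chance gives about 1 in 20.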

How the results depend on the processing

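The strain differences of the 3 members kept their direction under every alternative run. For Acnat1 the log2 difference was -9.88 with a pseudocount of 0.1, -5.00 with 5 and -6.59 among samples 4 and 5, and -7.51 to -7.02 with 1 sample left out. By reads, SD over EHBR for Acnat1 was 3214 to 10209 with 1 sample left out, an alternative chosen after seeing the data. For Acnat2 the log2 difference was -2.86 with a pseudocount of 5 and -2.69 among samples 4 and 5, and -4.07 to -3.34 with 1 sample left out. For Baat it was -0.33 in FPKM, -0.40 in upper-quartile FPKM and -0.40 after median centring, against -0.23 in the main run. With 1 sample left out the Baat difference ran between -0.34 and -0.17. The mean ratio of Acnat1 to Acnat2 was 0.0148 to 0.0302 in EHBR and 3.14 to 4.03 in SD with 1 sample left out. Over all genes, 219 were higher with upper-quartile FPKM and 193 after median centring, 1506 were higher and 372 lower with a term for samples 1 to 3 against 4 and 5, 290 were lower after quantile normalization and 112 lower among samples 4 and 5. Leaving out 1 sample left 243 to 439 higher genes, with 276, 243 and 269 without EHBR samples 1, 2 and 3, and 135 to 179 lower genes. Of the related genes, 0 were higher with upper-quartile FPKM and 0 after median centring, 12 were higher and 5 lower with the term, 7 higher and 5 lower among samples 1 to 3, 5 higher among samples 4 and 5, and 1 to 6 higher and 2 to 3 lower with 1 sample left out: 1 without EHBR sample 1, 2 or 3 or SD sample 1 or 3, and 6 without SD sample 2. Of the neighbours, Stx17 and Rnf20 (2 genes) were higher with the term and Stx17 (1 gene) among samples 4 and 5. Acot12, which did not pass, turned to -0.0243 with upper-quartile FPKM and -0.0511 after median centring, and ran from -0.0614 (without SD sample 5) to 0.224 with 1 sample left out. The cause of these changes was not tested.

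Deviations from the strain mean of same-numbered EHBR and SD samples correlated across genes at 0.0742 to 0.287. Such samples also share a set, 1 to 3 or 4 and 5, and pairs within the sets correlated at 0.0542 to 0.396. Only 1 of 5 EHBR samples correlated best with its own number, while each correlated best with an SD sample of its own set. The replicate block gave 639 higher and 222 lower genes over all, and 5 higher related genes. The few reads of Acnat1 in EHBR limit how far its level there can be resolved. How far reads shared between the copies limit the split of Acnat1 from Acnat2 was not tested.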

Other observations

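The deposited TPM and FPKM tables did not count the members in the same way. If FPKM were rescaled to TPM, the deposited TPM of Acnat1 in the SD samples would be 0.874 to 0.939 of the rescaled value, that of Acnat2 over all samples 0.834 to 1.01 and that of Baat 0.966 to 1.005. For Acnat1 in EHBR, samples 2 and 3 were listed above 0 in TPM and at 0 in FPKM, and sample 4 above 0 in FPKM and at 0 in TPM. Sample 5 was above 0 in both. The sources used here do not say which step made the tables differ.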
